A study of Mus musculus with 15 samples.

Results

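The cytosolic ribosomal protein genes were taken as the autosomal protein-coding genes of the GENCODE M21 annotation of mm10 (GRCm38) whose symbol is Rpl or Rps with a number and at most a single letter a or l, together with Rplp0, Rplp1, Rplp2 and Rpsa. The rule gave 76 of 20722 autosomal protein-coding genes, 46 of the large and 30 of the small ribosomal subunit. A further 3 genes that fit the symbol rule lie on the X chromosome and were left out, and pseudogenes were not used. All 76 genes had CGs in the promoter, the exons and the 2 kb downstream, and 75 had introns, since Rpl10l is a single-exon gene.

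Every library was made from DNA of E14TG2a, a mouse embryonic stem cell line grown in serum and LIF. The labels name no treatment of the cells and no genetic difference between them. hmTOP-seq, in which β-glucosyltransferase (BGT) places an azide-carrying sugar on 5hmC and a tethered oligonucleotide primes a read at the labeled CG, was carried out with 500, 50 or 5 ng of DNA in 2 technical replicates each. For each input, 2 control libraries went through the same steps without BGT. uTOP-seq, which reads the unmodified CG sites (uCGs), was carried out with 300 ng of DNA in 3 replicates. The replicates were not said to be separate cultures, so every p-value below measures only the spread between these libraries, which may be technical.

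The cytosolic ribosome is built from a small subunit, which decodes the mRNA, and a large subunit, which joins the amino acids, and nearly all of its proteins are encoded by single, short, CG-rich genes that are transcribed at high rates in dividing cells. These genes carry many processed pseudogenes elsewhere in the genome. 5hmC is made from 5-methylcytosine by the TET enzymes, is abundant in embryonic stem cells and is known to be scarce at unmethylated CG-rich promoters.

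Some of the CGs with most reads are shown first, as examples of sites where 5hmC was and was not read. Each line gives 30 bases of GRCm38 (RefSeq) in the direction of the gene, with the CG in capitals. The first 6 are among the 12 CGs with most 5hmC reads at 500 ng, at most 2 per gene, of which 4 lie in exons, 3 in introns, 2 in promoters and 3 in the 2 kb downstream, and the last 3 are among the CGs inside a gene that had no 5hmC read at 500 ng but most uCG reads.
Rpl3l coding exon, chr17:24728375-24728404: ggagccggcggcacCGgggcaaggtgaaga
Rpl3l intron, chr17:24728187-24728216: tggacctctccctcCGgcctctagcctgcg
Rpl14 promoter, chr9:120569892-120569921: atcccccaagctccCGgcagtgaagctttc
Rpl13 downstream, chr8:123105573-123105602: gattaggtttgcccCGacagtgacttagaa
Rps21 downstream, chr2:180260219-180260248: tccatctgtgtcccCGtctaaggcccagtg
Rps18 downstream, chr17:33950481-33950510: tccaccctatgcctCGggcacaggatatgt
Rpl9 intron, chr5:65390995-65391024: ccagccgtctcaccCGggtgtctgtgtttc
Rps18 intron, chr17:33955561-33955590: tgcgacatcggagcCGgggcagggagagat
Rpl27 coding exon, chr11:101442731-101442760: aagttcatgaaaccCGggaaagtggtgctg

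The exonic CG of Rpl3l lies 569 bp downstream of the transcript start and had 75 and 54 5hmC reads in the 500-ng replicates, against 14, 9 and 14 uCG reads. Its intronic CG, at 381 bp, had 36 and 44 5hmC reads and 4, 7 and 2 uCG reads. The CG 343 bp past the end of Rpl13 had 54 and 62 5hmC reads and no uCG read in any of the 3 uTOP-seq libraries. The CG in the first 435 bp of Rpl9 showed the opposite, with no read in any of the 6 BGT-labeled libraries and 35, 25 and 27 uCG reads. In Rps18, the CG 102 bp from its start had no 5hmC read and 34, 20 and 25 uCG reads, whereas the CG 1504 bp past its end, outside the gene, had 48 and 22 5hmC reads and 4, 13 and 6 uCG reads. These sites were chosen by their reads and are examples only. Over all CGs of the 76 genes, 80% of 4961 intronic, 65.8% of 1563 coding and 82.8% of 1115 untranslated exonic CGs had no 5hmC read at 500 ng. In promoters this was 69.3% of 3450 CGs, and in the 2 kb downstream 40.8% of 2020 CGs. Each of these elements had a uCG read at 86.2% to 89.8% of its CGs.

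The 500-ng libraries held 32502791 and 31918445 reads. Those made from 50 ng had 23027170 and 22052535, those from 5 ng 14884939 and 15277636, and the uTOP-seq libraries between 20120568 and 28412885. The 76 genes with 2 kb on either side hold 0.0643% of the autosomal CGs. They took 0.0502% (95% exact binomial interval 0.0494% to 0.0510%) and 0.0504% (0.0497% to 0.0512%) of the 5hmC reads at 500 ng, and between 0.182% and 0.188% of the uCG reads. The read shares are of all reads, of which 32159559 and 31577846 at 500 ng were autosomal, whereas the CG share is of autosomal CGs. The intervals cover counting error only, since duplicates were removed without molecular identifiers. The 2 control libraries at 500 ng, with 10072 and 9348 reads in all, had 11 and 9 reads at these genes. These were 0.109% (95% exact binomial interval 0.0545% to 0.195%) and 0.0963% (0.0440% to 0.183%) of their reads. That is a higher share than in the labeled libraries, from few reads. The control reads were spread over 10 genes with at most 5 reads in any of them, and the controls at 50 and 5 ng had 1 and 4 reads.

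To describe where 5hmC and uCG stood in these genes, reads per CG were used, the reads of an element divided by its number of CGs. They were compared with those of other protein-coding genes of similar span and promoter CG number. For each ribosomal protein gene the comparison genes had a transcript span and a promoter CG number each at most 25% above its own or below it by the same factor, with a median of 214 comparison genes and a range from 5 for Rpl7 to 690 for Rps14. These are medians over genes, which are not replicates, and no test was made between the gene groups.

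The bodies of the ribosomal protein genes were low in 5hmC and high in uCG. In introns, the median was 0.200 5hmC reads per CG in each of the 500-ng replicates, compared with 1.75 and 1.69 in the comparison genes, a ratio of 0.114 and 0.118. In exons, the median was 0.551 and 0.479 compared with 2.18 and 2.05, a ratio of 0.253 and 0.233. On the mean of both replicates, 70 of 75 genes were below their comparison genes in introns and 66 of 76 in exons. The uCG medians went the other way. In introns they were 4.22, 3.57 and 2.99 reads per CG in the 3 uTOP-seq replicates compared with 3.44, 2.79 and 2.39, and in exons 4.18, 3.41 and 2.91 compared with 3.14, 2.51 and 2.16. On the mean of the replicates, 62 of 75 genes were above their comparison genes in introns and 66 of 76 in exons. The uTOP-seq replicates differ in depth, so that the levels move together between libraries while the ratios stayed between 1.22 and 1.36.

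**Figure D1:**
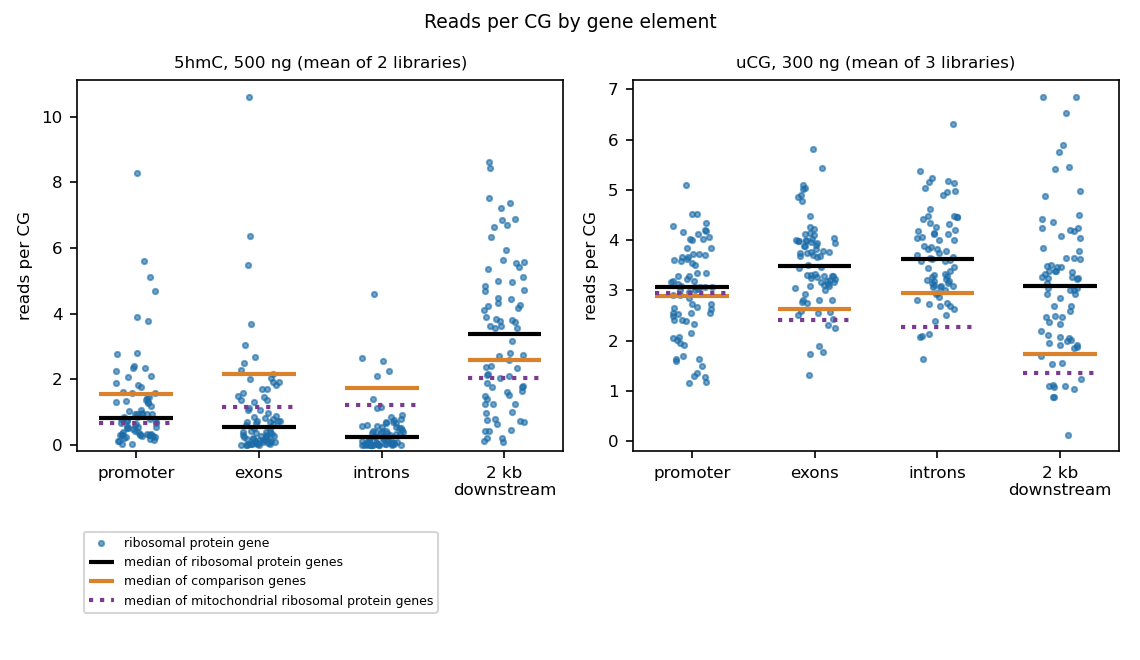
Reads per CG (y axis) of each ribosomal protein gene by element (x axis), with the median of the ribosomal protein genes (black), of their comparison genes (orange) and of the mitochondrial ribosomal protein genes (dotted purple). For 5hmC the black line lies below the orange one in introns (0.235 against 1.73) and exons, and for uCG it lies above.

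At promoters, taken as the 2 kb before the start, the 5hmC median was 0.717 and 0.864 reads per CG compared with 1.62 and 1.54, and 58 of 76 genes were below their comparison genes. The 78 mitochondrial ribosomal protein genes (Mrpl and Mrps), whose products serve the ribosome of the mitochondrion, had a lower promoter median still, 0.652 against 0.816 on the mean of both replicates. Promoter uCG hardly differed, with 3.06 reads per CG against 2.89. In the 2 kb downstream the 5hmC median was 3.16 and 3.15 compared with 2.65 and 2.53, and 44 of 76 genes were above. The ratio of medians on the mean of both replicates was 1.30, and 1.33 with CGs weighted by mappability. It turned to 0.949 when genes were dropped by mappability, among the 60 genes with at least 90% of their downstream CGs mappable, and comparison genes held to the same limit, although 31 genes were above and 28 below their own comparison genes. Downstream uCG was 1.77 times that of the comparison genes, with 66 of 76 genes above, and this ratio was 1.74 under the same limit.

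Exons of these genes are partly shared with their processed pseudogenes, and 80-nt reads simulated from their exonic CGs were mapped back uniquely at a median of 79.8% of CGs, compared with 100% in the comparison genes. Introns were mappable at a median of 99.1%. Among the 21 genes with at least 90% mappable exons, the exon 5hmC median was 0.847 compared with 2.36 for comparison genes held to the same limit. With CGs weighted by mappability, the exon ratio was 0.343 in place of 0.253, whereas the intron ratio was 0.134 in place of 0.136.

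The low 5hmC extended farther from the start than in the comparison genes. In these profiles the 5249 distinct comparison genes were pooled, each counted once, so their match to single ribosomal protein genes is not kept. Within 200 bp downstream of the start, ribosomal protein genes had 0.21 reads per CG (1268 CGs), comparison genes 0.87 and mitochondrial ribosomal protein genes 0.05. Between 1000 and 1200 bp, the ribosomal protein genes were still at 0.13 (259 CGs), when the comparison genes had reached 2.57 and the mitochondrial ribosomal protein genes 1.098. Between 1800 and 2000 bp they had 1.16 (195 CGs), against 3.18 and 2.05. Inside the gene the level went up toward the end, from 0.28 reads per CG in the bin 2000 to 1800 bp before the end to 2.32 in the last 200 bp. Past the end it stayed between 2.42 and 3.37 in every 200-bp bin up to 2 kb. When only CGs more than 1 kb downstream of the start were counted, the intron median was 0.704 compared with 2.52 (58 of 67 genes below) and the exon median 1.04 compared with 3.38 (57 of 69 below), while the intron uCG median was 3.68 compared with 2.20 (63 of 67 above).

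**Figure D2:**
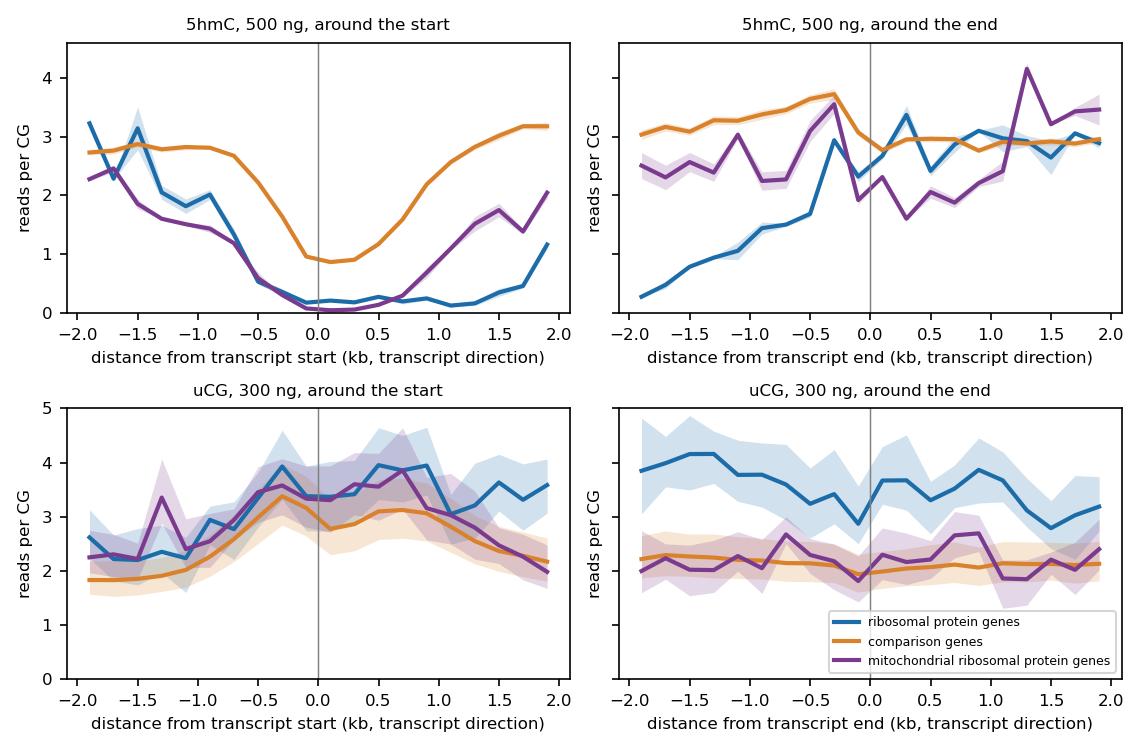
Reads per CG (y axis) in 200-bp bins by distance from the transcript start (left) or end (right), with CGs pooled over the genes of a group. Each of the 5249 distinct comparison genes counts once, without the match to single genes. Lines are means over libraries and bands the lowest and highest library. The 5hmC line of the ribosomal protein genes stays below 0.5 from 400 bp before to 1.8 kb after the start, while that of the comparison genes passes 2 before 1 kb.

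Within genes, elements were compared by a quasi-likelihood test of edgeR over all genes with enough CGs and reads, with introns as the reference, and Benjamini-Hochberg adjustment at 0.05. Rpl10l, without introns, and Rps12, with too few reads, were not fitted for 5hmC, which left 74 ribosomal protein genes. The 2 kb downstream had more 5hmC reads per CG than introns in 69 of 74 genes and fewer in 3, where 33.9% and 29.9% of the 17440 genes tested were higher and lower. The median log2 ratio was 3.81 for the ribosomal protein genes and 0.01 for all genes. Promoters were higher than introns in 49 and lower in 10 (22.6% and 48.7% of all genes), with a median log2 ratio of 2.06 against -0.57. Exons were higher in 41 and lower in 4 (46.6% and 20.3% of all genes), with medians of 1.47 and 0.36. The mitochondrial ribosomal protein genes had 42 of 78 higher downstream and 13 of 78 higher at the promoter. With introns and exons held to CGs over 1 kb from the start, 50 of 63 ribosomal protein genes were higher downstream (29.2% of 16836 genes) and 28 of 63 were higher in exons (53.2%). The exon counts moved with the gene model: with the whole gene and the union of its exons, 26 of 67 genes fitted were higher and 17 lower. No share over all genes was computed for that model, so these counts cannot be set against all genes.

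Among the genes called higher in exons, the log2 ratio was largest in Rpl37 (6.40 ± 1.51 (SE), edgeR adjusted p = 0.00017), Rps6 (5.31 ± 0.98, adjusted p = 2.6e-06) and Rps20 (5.06 ± 1.78, adjusted p = 0.010). These ranks rest on introns with 0 or 1 read. Rps6, which encodes the small-subunit protein that is phosphorylated by S6 kinase, had 1 intronic read. The exact 95% interval of its ratio ran from 9.15 to 2272. Rpl37 and Rps20 had no intronic read, so that exons were at least 6.58-fold and at least 2.61-fold above introns when 3 reads over both libraries stand for the limit of a count of 0. With the counting error of their 16 and 11 exonic reads included, the exact 95% interval of the ratio reaches down to 4.76 in Rpl37 and 1.79 in Rps20. Exons were lower than introns in Rpl13 (-1.55 ± 0.38), Rps25 (-1.54 ± 0.47) and Rpl7 (-1.37 ± 0.51; edgeR adjusted p = 0.00027, 0.0030 and 0.015). With CGs weighted by mappability, 1 gene in place of 4 was lower in exons, and the share over all genes was not computed with these weights. In 4 genes, among them Rpl37a, Rps27 and Rps27l, no 5hmC read fell into the exons in either 500-ng replicate.

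In 9 genes, no 5hmC read fell into the introns in either 500-ng replicate: Rplp1, Rps27a, Rps21, Rps20, Rpl36, Rps12, Rps23, Rpl37 and Rpl41. Rps21, a small protein of the small subunit, had 0 and 0 reads at 27 intronic CGs, and 5.69 and 5.41 reads per CG at 32 downstream CGs. The downstream region was thus at least 99.8-fold above the introns, with 3 reads over both libraries taken as the limit that a count of 0 allows (edgeR adjusted p = 1.5e-20). Rpl36, of the large subunit, had 4.11 reads per CG downstream in both replicates and none at 38 intronic CGs, a ratio of at least 104-fold (edgeR adjusted p = 1.7e-19). Rplp1, an acidic protein of the stalk that recruits elongation factors, had 3.64 and 3.93 downstream and none at 32 intronic CGs, at least 80.8-fold (edgeR adjusted p = 1.7e-13). The exact 95% intervals of these 3 ratios, which include the counting error downstream, reach down to 80.8 in Rps21, 84.2 in Rpl36 and 64.5 in Rplp1. Their introns were well covered by uTOP-seq, with 3.30, 4.74 and 2.93 uCG reads per CG in Rps21. Rps12 stood apart from these, with 5hmC low in every element: 0.0217 and 0.0435 reads per CG in the promoter, 0 in introns, and 0.100 and 0.300 downstream, where comparison genes had 2.68.

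**Figure D3:**
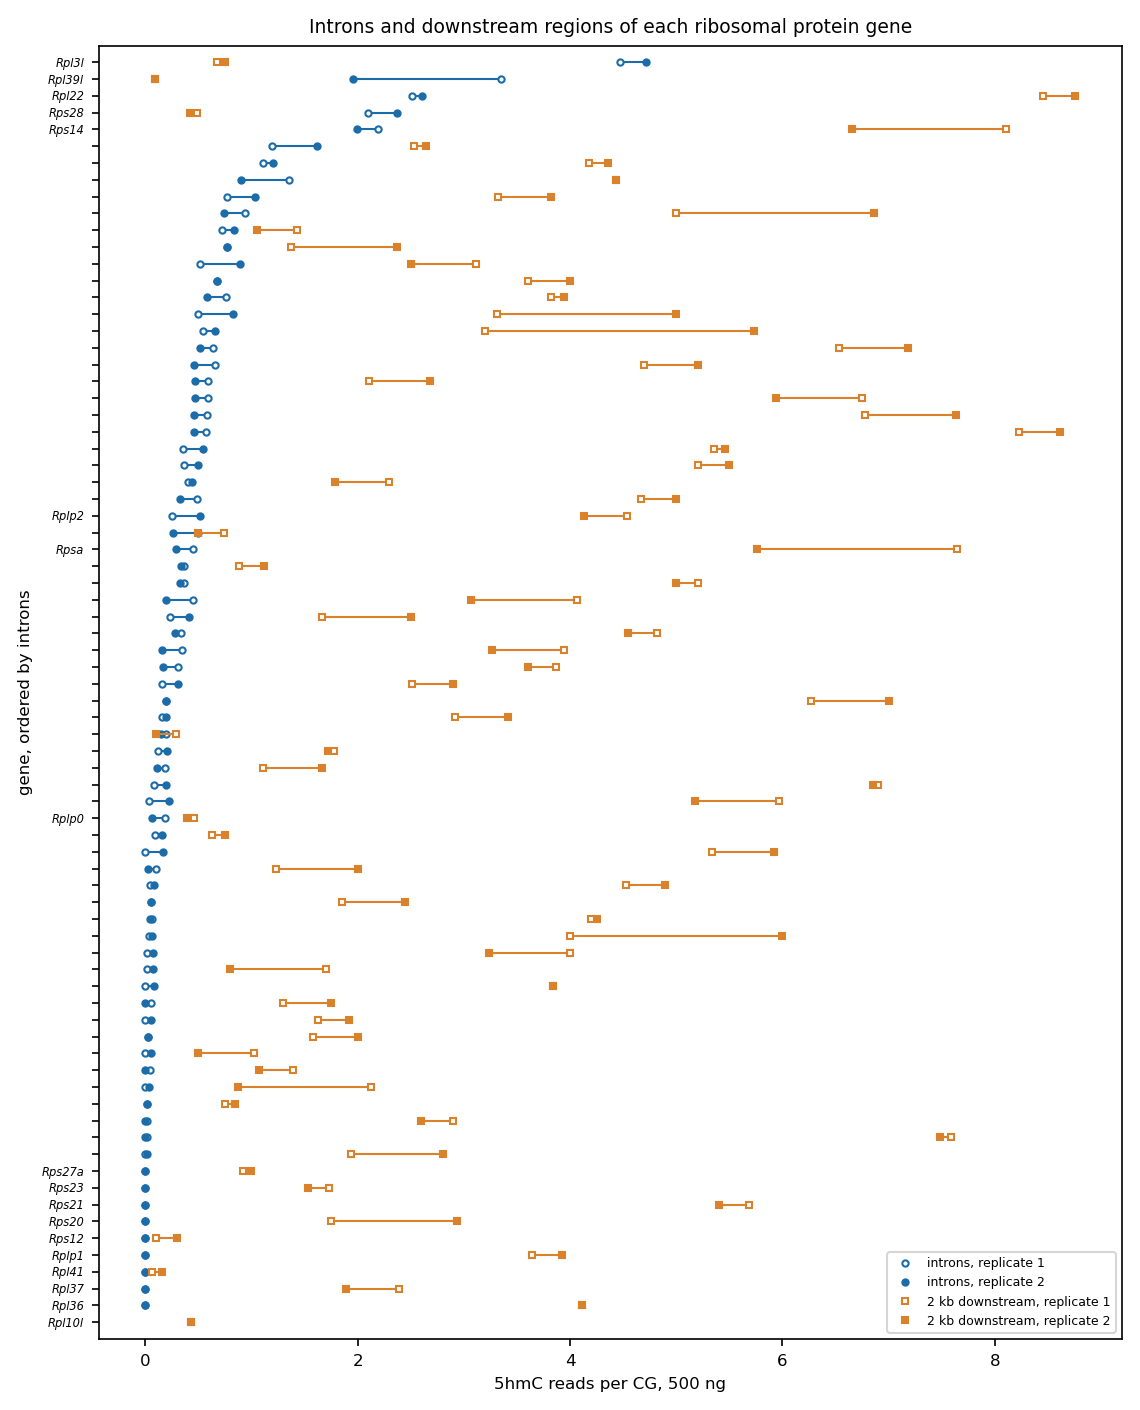
5hmC reads per CG at 500 ng (x axis) in introns (blue circles) and in the 2 kb downstream (orange squares) of each gene (y axis, ordered by introns; names are given for the genes above their comparison genes in introns, those without an intronic read or introns, the P-stalk genes and Rpsa), with open marks for replicate 1 and filled marks for replicate 2. Orange lies to the right of blue in 72 of the 75 genes with introns, the exceptions being Rpl3l, Rpl39l and Rps28.

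Among the other proteins of the P-stalk, Rplp0, the base of the stalk, had 0.190 and 0.0635 5hmC reads per CG in introns and 0.462 and 0.396 downstream, where the start of another gene (Gcn1l1) lies within 2 kb. Rplp2 had 0.256 and 0.512 in introns and 4.53 and 4.13 downstream. Rpsa, which is also known as a laminin receptor, had 0.452 and 0.288 in introns, 2.46 and 2.90 in exons and 7.65 and 5.76 downstream, so that its exons and its downstream region were both above its introns (edgeR log2 ratio 2.86 ± 0.28 (SE) and 4.17 ± 0.28, adjusted p = 3.4e-14 and 1.2e-21). The ubiquitin fusion gene Rps27a had no intronic read at 34 CGs and 0.917 and 1 downstream.

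The highest downstream levels were in Rpl22 (8.45 and 8.76), Rpl35 (8.23 and 8.62) and Rpl10a (7.59 and 7.48). Rpl10a had 1 5hmC read at 60 intronic CGs, whereas Rpl22 was itself above its comparison genes there. The lowest were in Rpl39l (0.0909 in both replicates), Rpl41 (0.0641 and 0.154) and Rpl13a (0.287 and 0.0990). In 10 genes the start of another protein-coding gene lay in the downstream region, as Zc3h10 does for Rpl41. The downstream median was 0.978 in these 10 genes, with a median of 63.5 CGs, and 3.61 in the other 66, with a median of 17 CGs. Without the 10 genes the downstream ratio was 1.42, against comparison genes that were not held to the same condition.

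5hmC above comparison genes was found in introns of 5 genes, Rpl3l, Rpl39l, Rpl22, Rps28 and Rps14. Rpl3l, the paralog of Rpl3 that is known from skeletal muscle and heart, was the highest, with 11.5 and 9.63 reads per CG in exons and 4.47 and 4.71 in introns, where comparison genes had 0.355 and 0.312. Its parent Rpl3 had 1.28 and 1.33 in exons, of which 55.1% of CGs were mappable, and 1.35 and 0.902 in introns. In Rpl3l, the downstream region was below the introns (0.673 and 0.755 reads per CG; edgeR log2 ratio -2.68 ± 0.21 (SE), adjusted p = 1.6e-18), and for uCG it was above them (log2 ratio 0.95 ± 0.16, adjusted p = 2.1e-06). Rpl39l, a paralog of the X-linked Rpl39 known from testis, had 5.68 and 5.27 in exons and 3.35 and 1.96 in introns, with all CGs of both mappable, and its downstream region was below its introns as well (log2 ratio -4.76 ± 0.66, edgeR adjusted p = 3.3e-09, from 2 reads at 11 CGs). Rpl10l, the intronless paralog of the X-linked Rpl10, had 1.96 and 1.68 in its exon, and had the lowest uCG level of the genes there, 1.67, 1.44 and 0.860. In Rps27l, the near copy of Rps27, the introns had 0.0893 and 0.161 5hmC reads per CG against 0 and 0.0385 in Rps27. Only 28.1% of the downstream CGs of Rps27l were mappable, and its uCG level there was 0.125 reads per CG; the part of mappability in that value was not tested.

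Rpl22, an RNA-binding protein of the large subunit, had 2.52 and 2.60 5hmC reads per CG at 159 intronic CGs compared with 2.04. Rps28, of the small subunit, had 2.10 and 2.37 in introns but 0.189 and 0.321 in the promoter and 0.492 and 0.423 at 130 downstream CGs, so that both flanks were below the introns (edgeR log2 ratio -3.13 ± 0.36 and -2.27 ± 0.29, adjusted p = 5.3e-12 and 2.7e-10). Rps14, a small-subunit protein, had 2.19 and 1.99 at 536 intronic CGs; its transcript model here spans 31397 bp, the longest of the 76 genes. The annotation has other principal transcripts of Rps14, and the one whose start is tagged as supported by CAGE begins 27447 bp farther downstream. With that transcript, Rps14 had 0.318 and 0.400 5hmC reads per CG at 85 intronic CGs, below the 1.84 of the comparison genes of the long model.

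The promoters with most 5hmC were those of Rps10 (8.46 and 8.08 reads per CG), Rps14 (6.00 and 5.21) and Rpl14 (5.17 and 5.07). These ranks rest on the start that was used. At the CAGE-tagged start of Rps14 the promoter had 1.45 and 1.15 reads per CG. Rps10 has annotated starts 1124 and 2194 bp downstream of the one used, where the 2 kb before the start had 4.97 and 4.87, and 0.525 and 0.663. Which start these cells use was not tested. For Rps10, a small-subunit protein, the promoter at the start used was 7.15-fold above its introns (log2 ratio 2.84 ± 0.19 (SE), edgeR adjusted p = 8.0e-22). The direction turns with the start, since the introns had 1.14 and 1.20 with the start at 1124 bp, below that promoter, and 2.58 and 2.71 with the start at 2194 bp, above it. The 2 Rpl14 CGs with most reads lie at -1538 and -1500 bp from its start, and the first of them is printed above. Rpl15 (0.0185 and 0.0370), Rps12 and Rps18 (0.136 and 0.0909) had the fewest. In Rpl7 and Rps18 the promoter was below the introns (log2 ratio -2.56 ± 0.44 and -2.61 ± 0.42, edgeR adjusted p = 4.0e-07 and 1.4e-07). When the promoter was set from 1 kb before to 500 bp after the start, the ribosomal protein genes had a median of 0.122 compared with 0.590, and the mitochondrial ribosomal protein genes 0.165.

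Longer ribosomal protein genes had more intronic 5hmC. The 9 genes under 2 kb had a median of 0 reads per CG in introns, with 0.0556 as the highest, the 39 genes of 2 to 4 kb had 0.130, and the 27 genes over 4 kb had 0.527. Spearman's rho between span and intronic 5hmC was 0.754 over 75 genes and 0.745 without Rpl3l, Rpl39l and Rps27l. Over 4780 comparison genes with introns, pooled without the match to single genes, it was 0.0375. The points share libraries, and in short genes more of the intronic CGs lie near the start. Matched gene by gene, the comparison genes of the 3 length classes also had rising intron medians, 0.494, 1.49 and 1.90. Beyond 1 kb from the start, the intron medians of the 2 longer classes were 0.538 and 1.01.

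**Figure D4:**
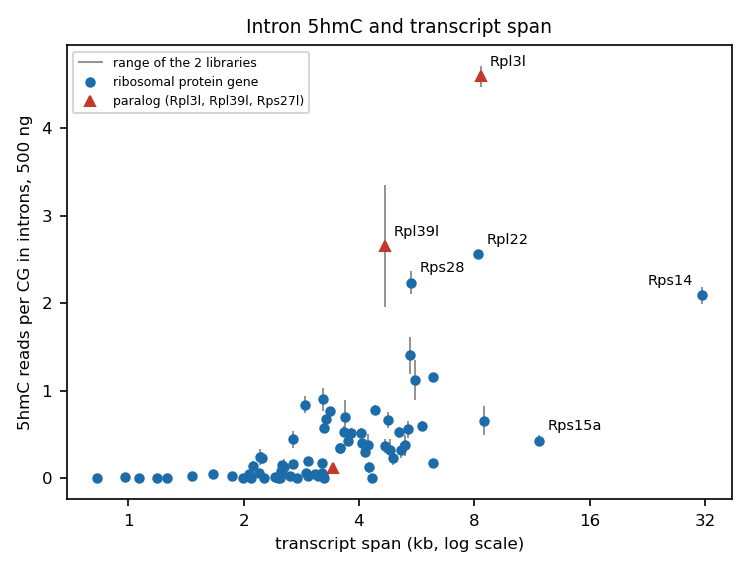
Intronic 5hmC reads per CG at 500 ng (y axis) against transcript span (x axis, log scale) for 75 ribosomal protein genes, with grey lines from the lower to the higher replicate and red triangles for the paralogs. Genes under 2 kb lie at or near 0, and the 5 highest points are the genes above their comparison genes, of which Rps14, the rightmost, is drawn with its long transcript model.

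In the uTOP-seq fit, 75 ribosomal protein genes were tested among 17974 genes. Promoters had fewer uCG reads per CG than introns in 29 genes and more in 4, where 11.1% and 50.9% of all genes were lower and higher. The 29 fell to 19 when replicate 1 was left out, and the 4 to 2 without replicate 2. The shares over all genes are those of the fit with 3 replicates and were not computed with a replicate left out. The downstream region was lower in 25 and higher in 10 (33.9% and 16.0% of all genes), and exons were lower in 14 and higher in 8 (15.0% and 31.4%; 5 higher without replicate 2). Beyond 1 kb from the start, 21 of 64 genes were lower and 5 higher in exons (13.7% and 21.6% of 17292 genes), and 24 were lower and 4 higher downstream (23.5% and 18.9%). The exon counts changed with mappability: with CGs weighted by it, 2 genes were lower and 24 higher. With these weights the share over all genes was not computed, so the change cannot be read as particular to ribosomal protein genes.

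By single genes, introns had most uCG in Rpl9 (7.20, 6.51 and 5.20 reads per CG) and least in Rpl39l (1.74, 1.65 and 1.52). The promoter of Rpl41, which encodes a very short basic peptide of the large subunit, had 1.103, 1.52 and 0.931 and its introns 5.24 in the mean, a log2 ratio of -2.14 ± 0.20 (SE, edgeR adjusted p = 1.4e-13), and the same promoter had 2.90 and 2.62 5hmC reads per CG. Rpl6 and Rps23 had the next largest ratios in this direction (-1.90 and -1.38), and Rpl14, Rpl10a and Rpl13 the largest in the other (0.63, 0.53 and 0.52). The downstream region of Rpl27 was below its introns in uCG (log2 ratio -2.18 ± 0.22, edgeR adjusted p = 1.4e-11), with 43.2% of its downstream CGs mappable. Rpl4 and Rpl38 had more uCG downstream than in introns (0.78 in both, edgeR adjusted p = 4.5e-06 and 1.3e-05). Between exons and introns the largest uCG ratios were those of Rpl34 (0.92), Rps14 (0.84, with the long model) and Rplp0 (0.62) in one direction and Rpl26 (-0.94), Rplp1 (-0.91) and Rpl41 (-0.90) in the other. Exons were highest in Rpl27 (5.82 in the mean) and Rpl8 (5.44), and Rpl38, which is known for its role in the translation of Hox mRNAs, had the highest downstream level, 6.85 ± 0.48 (SD, n = 3). Downstream uCG was lowest, after Rps27l, in Rpl13 (0.88) and Rps13 (0.89), and the Rpl13 region is the one with 5.00 and 6.86 5hmC reads per CG. In the mean of the replicates, 39 of 76 genes had more 5hmC than uCG reads per CG downstream, compared with 5 of 76 in exons, 3 of 75 in introns and 10 of 76 in promoters; reads of the 2 assays are not calibrated to each other, so only the contrast between elements can be read.

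For the large and the small subunit, intron medians for 5hmC were 0.321 and 0.137, exon medians 0.641 and 0.306 and downstream medians 3.76 and 2.48, with uCG intron medians of 3.59 and 3.66. The 27 genes that hold a snoRNA gene in the same strand had intron medians of 0.173 for 5hmC and 3.61 for uCG, and the other 49 had 0.243 and 3.64. A chosen list of 12 genes known from Diamond-Blackfan anaemia, among them Rps19, Rpl5 and Rpl11, does not hold every gene reported in that disease. Its intron 5hmC median was 0.476 and its promoter median 1.39, compared with 0.235 and 0.816 in all 76 genes. Its downstream median was lower, 2.88 compared with 3.37. The list holds Rps10, whose promoter value depends on the start. A list of 20 other translation genes, such as the elongation factors Eef1a1 and Eef2, had intron medians of 0.747 for 5hmC and 2.91 for uCG, and the mitochondrial ribosomal protein genes 1.22 and 2.28. Over all other protein-coding genes these medians were 1.48 and 1.41. The share of genes with more 5hmC downstream than in introns was 14 of 20 for the other translation genes. No test was made between these lists.

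At lower inputs too, the 5hmC median was highest in the 2 kb downstream. At 50 ng the medians were 0.104 and 0.0897 in introns and 2.10 and 1.94 downstream, and at 5 ng 0 and 0.0179 in introns and 1.34 and 1.04 downstream. Exons, at 0.342 and 0.371, were above introns in both 50-ng libraries, but at 5 ng they had 0 and 0.0326 and tied with introns in replicate 1. Agreement between the 2 replicates over genes, as Spearman's rho of downstream 5hmC over 76 genes, fell with the input, with values of 0.953 for the 500-ng, 0.846 for the 50-ng and 0.393 for the 5-ng libraries, and in introns they were 0.923, 0.833 and 0.480 over 75 genes. In the region from 2 kb before to 2 kb after each gene, edgeR with TMM called none of 75 ribosomal protein genes at 50 against 500 ng, where 0.00526% of 18995 genes were called, and none at 5 against 500 ng, where 0% of 18809 were. At an unadjusted p under 0.05 these were 2 higher and 1 lower at 50 ng (5.59% and 5.89% of all genes), and 4 higher and 2 lower at 5 ng (5.75% and 5.39%). DESeq2 called none of the 75 at 50 ng, where 0.0684% of all genes were higher and 0.137% lower, and 1 of 75 higher at 5 ng, where 2.84% were higher and 2.21% lower. The median log2 ratio was 0.04 at 50 ng and 0.12 at 5 ng. The largest single ratio was that of Rpl15 at 5 ng, with 38 and 33 reads at 500 ng and 67 and 51 at 5 ng (log2 ratio 1.88 ± 0.58 (SE), edgeR adjusted p = 0.44). A ratio of this size thus went uncalled, so the lack of calls at 5 ng does not show equal levels. With a single 50-ng library, which is then assumed to vary like the 500-ng libraries, 2 genes were higher and 2 lower without replicate 1 (6.09% and 6.76% of all genes), and 5 higher and 3 lower without replicate 2 (6.12% and 6.89%). With a single 5-ng library these were 21 higher and 23 lower without replicate 1 (27.5% and 30.1% of all genes), and 23 higher and 22 lower without replicate 2 (27.5% and 29.4%). The shares of the 75 genes lay near those of all genes in the 5-ng fits.

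**Figure D5:**
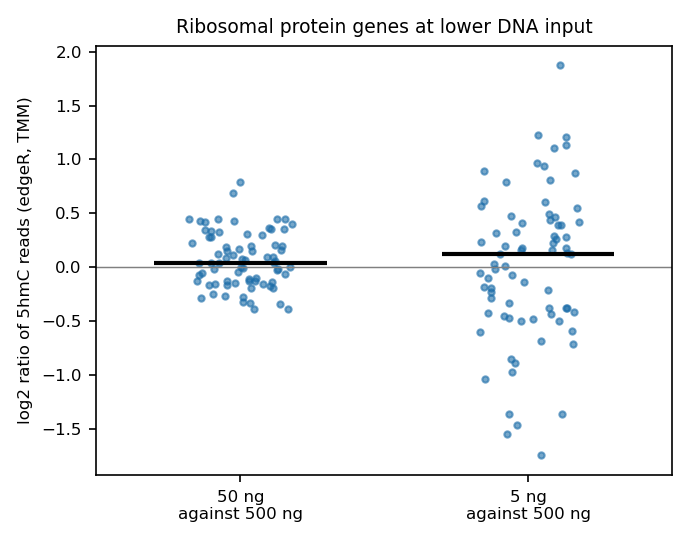
Log2 ratio of 5hmC reads of the 50-ng and the 5-ng libraries to the 500-ng libraries (y axis) for 75 ribosomal protein genes, each a point, with the median as a black line. The points spread from -0.39 to 0.79 at 50 ng and from -1.75 to 1.88 at 5 ng around medians of 0.04 and 0.12.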

How the data were processed

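5hmC was read by hmTOP-seq and unmodified CGs by uTOP-seq in 15 libraries of mouse embryonic stem cell DNA. The authors mapped reads (for hmTOP-seq, raw reads of at least 80 nt) to mm10, kept alignments of mapping quality 30 or above, dropped reads that shared start and length as duplicates, and assigned the rest to CGs; the aligner is not given in the sources used here. The deposited values are raw read counts per CG and library, without normalization or pooling, and replicates of an input were kept apart.

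The deposited hmTOP-seq counts have both strands of a CG merged, and the uTOP-seq counts of both strands were summed here; CGs without a read were kept. Elements came from a single transcript per gene (principal isoform, then longest coding sequence): the 2 kb before the start, exons, introns and 2 kb downstream, each with at least 3 CGs. Uniqueness was estimated with 80-nt reads from every CG to both sides, mapped with minimap2 2.31 and kept at a mapping quality of 30 within 10 nt of their origin. Sequences were read with samtools 1.23.1.

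Counts per element were fitted with edgeR 4.0.16 (R 4.3.3) with library as a block and the library total and CG number as offset, for genes with a mean of at least 5 reads per element and library; inputs were compared without a block, with TMM, at a mean of at least 10 reads. p-values were adjusted over all genes fitted, with a threshold of 0.05. On simulated data, 80% and 98% of genes changed 2- and 4-fold between exons and introns at 500 ng were recovered (17440 genes). At 50 against 500 ng these were 91% and 100% (18995 genes), and at 5 against 500 ng 60% and 91% (18809 genes). Each simulated gene had the spread of the fitted trend, without differences between genes around it, so the real fits may recover fewer. Comparison genes, DESeq2 1.42.0, mappability weights, other gene models, the block and left-out replicates were alternatives. Starts of other principal transcripts were looked at after the values were seen. Other steps used Python 3.11.15 (pandas 2.3.3, numpy 2.4.6, scipy 1.17.1; figures with matplotlib 3.10.9).

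The genes and lists were chosen with earlier results of these data known. Named genes were the 3 highest and 3 lowest per element and assay with at least 10 CGs, the 3 largest ratios per direction among those called, the P-stalk genes, Rpsa, and the paralogs with their autosomal parents, besides genes singled out after their values were seen. Some of the genes and sequences that this rule names are not reported here.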

Additional observations from a re-analysis of the deposited data

How the results depend on the processing

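Of 114 alternative values of the median ratios to comparison genes, 44 moved by less than the spread between replicates, 68 moved by more and 2 turned direction. The downstream 5hmC ratio (1.30) was 0.949 with at least 90% mappability (31 genes above, 28 below) and 1.33 with mappability weights, and the promoter ratio (0.527) was 1.251 against mitochondrial ribosomal protein genes; the cause was not tested. Against the latter genes, exons, introns and downstream gave 0.475, 0.193 and 1.65 for 5hmC and 1.45, 1.60 and 2.29 for uCG. At 90% mappability, 5hmC exons and introns gave 0.358 and 0.114, and uCG exons and downstream 1.41 and 1.74. Mappability weights gave 0.343 for 5hmC exons, and 1.61 and 1.84 for uCG exons and downstream. CGs over 1 kb from the start gave 0.307 and 0.279 for 5hmC exons and introns, and 1.51 and 1.67 for uCG. A comparison factor of 1.1 gave 0.121 and 1.35 (5hmC introns, downstream) and 1.83 (uCG downstream), and a factor of 1.5 gave 1.34 (5hmC downstream), 1.28 and 1.84 (uCG introns, downstream). Gene bounds with the union of exons gave 0.208 and 0.178 for 5hmC exons and introns, and 1.30, 1.34 and 1.81 for uCG exons, introns and downstream. Division by the chromosome mean gave 0.234, 0.131 and 1.35 for 5hmC exons, introns and downstream, and 1.29 for uCG exons. CGs read in every replicate gave 0.167, 0.0942 and 1.247, and 1.49, 1.32 and 2.49. Without paralogs, values were 0.220, 0.125 and 1.37, and 1.39 and 1.80 (uCG exons, downstream). Without ribosomal protein genes that have another start downstream (comparison genes kept), they were 0.175, 0.0999 and 1.42, and 1.36 (uCG exons). The promoter from 1 kb upstream to 500 bp downstream gave 0.207 and 1.104 (uCG). At 50 ng, promoters, introns and downstream gave 0.624, 0.0907 and 1.22, and at 5 ng the 4 elements gave 0.421, 0.150, 0.124 and 1.17. With 1 replicate left out, 5hmC promoters ranged from 0.442 to 0.560, exons from 0.233 to 0.253, introns from 0.114 to 0.118 and downstream from 1.19 to 1.246, and uCG from 1.02 to 1.07, 1.31 to 1.35, 1.20 to 1.30 and 1.76 to 1.83.

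Of 122 alternative counts of called genes, 102 were within 1.5 times the main count. For the gene bounds, the mappability weights and the left-out uTOP-seq replicates, no share over all genes was computed, so these counts cannot be set against all genes. With gene bounds and the union of exons, 5hmC exons had 26 higher and 17 lower of 67 genes fitted, and uCG exons 13 higher. With mappability weights, 5hmC exons had 1 lower, and uCG exons 24 higher and 2 lower. Beyond 1 kb from the start, uCG exons had 5 and downstream 4 higher. With a uTOP-seq replicate left out, uCG promoters had 2 to 4 higher and 19 to 24 lower, and exons 5 to 8 higher. With a library left out, the counts at 50 against 500 ng ranged from 0 to 5 higher and 0 to 3 lower, and at 5 against 500 ng from 0 to 23 in each direction; DESeq2 called 1 of them higher at 5 ng. Leaving out a 500-ng library in the fits of elements left no residual degrees of freedom and was not run.

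Replicate numbers did not pair the input libraries (correlation of same-numbered deviations 0.0315 and 0.00525). With the replicate block, 0 ribosomal protein genes were called at either input, and over all genes 67 at 50 ng and 16 at 5 ng, compared with 1 and 0 without it. In the fits of elements, where library is the block, leaving out the block gave 49 higher and 10 lower (promoters), 41 and 4 (exons) and 69 and 3 (downstream) for 5hmC, and 5 and 29, 8 and 16, and 12 and 25 for uCG. At 5 ng, the exon and intron medians of replicate 1 were 0, so that a fold against them cannot be given at this depth. Exonic CGs were mappable at a median of 79.8%.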
